A study of Homo sapiens with 8 samples.

Results

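Secretory and cytotoxic granule genes were examined through the 11 probe sets that the platform annotation assigns to SRGN, GZMA, GZMB, GZMK, PRF1, NKG7 or GNLY and to no other symbol, of 41091 probe sets with exactly 1 symbol. SRGN had 3 of them, PRF1 and GNLY 2 each, and the other genes 1 each. Expression was measured on Affymetrix U133 Plus 2.0 arrays in Reh cells, an established leukaemia line with the features of a B-cell precursor, and the values are log2 expression values made by RMA. The cells carried a constitutively active form of the transcription factor IRF5 together with a constitutively active form of the kinase IKKβ (IRF5-4D with IKKβ(EE), hereafter the combination), IKKβ(EE) alone, IRF5-4D alone, or control constructs (mock). Each of the 4 groups held 2 arrays, numbered 1 and 3 in the labels and described as biological duplicates, which made 8 arrays. All groups were transfected cells of the same line. The share of transfected cells is not given in the sources, so the values may average over transfected and untransfected cells.

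Cytotoxic T cells and NK cells kill through granules that hold granzymes, which are serine proteases, and the pore-forming protein perforin. Serglycin, the product of SRGN, is the proteoglycan core that packs such cargo through its chains of chondroitin sulphate or heparin, and it is made by most blood cells, including mast cells, neutrophils and platelets. IRF5 belongs to the interferon regulatory factors, which bind DNA at interferon-response sites, and IKKβ is the kinase that frees NF-κB from its inhibitors.

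Across all 41091 probe sets, Pearson's r between the arrays of a group was 0.994 to 0.996. Array medians ran from 5.49 to 5.52 and lower quartiles from 3.86 to 3.91 on the log2 scale, and a value near the lower quartile is not shown to lie above background. Of 11 measured markers of B cells and their precursors, 10 lay above the array's median on every array, among them PAX5, EBF1, CD79B and RAG1, while VPREB1, a surrogate light chain gene, lay at 4.35 in the combination and 4.15 in mock. The probe set 211027_s_at of IKBKB, the gene of IKKβ, read 10.2 in the combination, 11.8 with IKKβ(EE), 4.64 with IRF5-4D and 4.43 in mock, so it was high in the groups with IKKβ(EE) and low in the others. For IRF5, probe set 205469_s_at was higher in the combination by 0.92 than in mock (SE 0.13, limma adjusted p = 0.00586) and by 0.88 than with IKKβ(EE) (adjusted p = 0.0121). It was also higher in the combination than with IRF5-4D alone, by 0.71 (SE 0.13, limma adjusted p = 0.0379). This signal was therefore not equal between the groups with IRF5-4D. With IRF5-4D alone no IRF5 probe set passed (differences from mock of 0.05 to 0.57). On 205468_s_at all 4 arrays of the groups with IRF5-4D, at 5.56 to 5.66, lay above the other 4, at 4.82 to 5.35. The position of these probe sets relative to the transfected sequence is not stated.

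The 7 genes followed different patterns. SRGN was higher with each construct and far higher with both, GZMA was higher with IRF5-4D alone and not with both constructs, and NKG7 was higher with both constructs and with neither alone. In the combination 4 of 11 probe sets, 3 of SRGN and 1 of NKG7, were higher than in mock at a limma adjusted p under 0.05, where 2.04% of all 41091 probe sets were. With IKKβ(EE) 2 of 11, both of SRGN, were higher (0.37% of all), and with IRF5-4D 2 of 11, 1 of SRGN and that of GZMA, were higher (0.238% of all). No probe set of the 7 genes was called lower than in mock in these comparisons. The 3 comparisons share the mock arrays. The median difference of the 11 probe sets from mock was 0.33 in the combination, 0.06 with IKKβ(EE) and 0.01 with IRF5-4D. Over all probe sets it was -0.03, -0.02 and -0.01. The 0.33 is the difference of GZMB, which was not called.

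**Figure D1:**
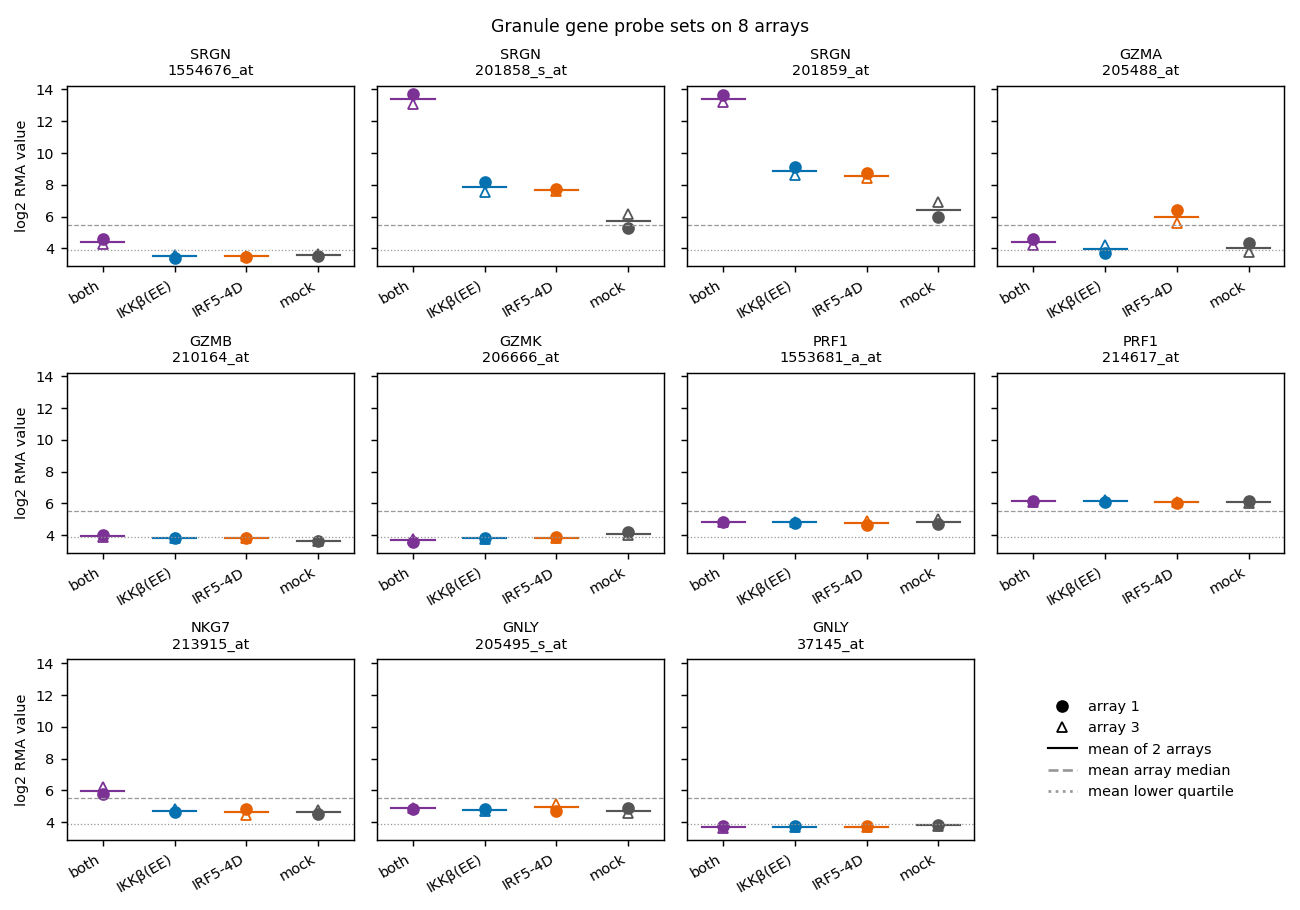
Log2 RMA value (vertical axis) of each of the 11 probe sets on the 8 arrays, by group (horizontal axis, both meaning IRF5-4D with IKKβ(EE)); circles are arrays numbered 1, triangles arrays numbered 3, short bars the mean of 2 arrays, and the dashed and dotted lines the mean array median and lower quartile. SRGN probe sets 201858_s_at and 201859_at lie above 13 with both constructs, GZMA is highest with IRF5-4D, NKG7 with both, and no probe set of GZMB, GZMK, PRF1 or GNLY passed the test.

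SRGN was read by 201859_at, 201858_s_at and 1554676_at. On 201859_at the values were 13.63 and 13.22 in the combination, 9.12 and 8.64 with IKKβ(EE), 8.75 and 8.42 with IRF5-4D, and 5.95 and 6.93 in mock (arrays 1 and 3). The lowest combination array lay far above the highest array of every other group. Both groups with a single construct lay above mock without overlap, and the single constructs overlapped each other. Over all probe sets the combination arrays lay above mock without overlap in 18.1%, and that share is not given here for the single constructs. In the combination SRGN averaged 13.42 ± 0.29 against 6.44 ± 0.70 in mock (SD, n = 2 each), a rise of 6.98 (SE 0.30, limma adjusted p = 1.04e-05) or 127-fold. With IKKβ(EE) it rose by 2.44 (SE 0.30, adjusted p = 0.012 by limma) or 5.44-fold, and with IRF5-4D by 2.15 (SE 0.30, adjusted p = 0.0256 by limma) or 4.43-fold. The mock arrays had the largest spread of the 4 groups on this probe set, and with mock array 1 left out the rises were 6.49, 1.95 and 1.66, the last with a limma adjusted p of 0.0964. The call with IRF5-4D was also lost without IRF5-4D array 1 (1.98) or array 3 (2.32), and that with IKKβ(EE) without IKKβ(EE) array 1 (2.20).

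The second probe set, 201858_s_at, gave the same order. It read 13.72 and 13.10 in the combination, 8.20 and 7.57 with IKKβ(EE), 7.74 and 7.59 with IRF5-4D, and 5.25 and 6.19 in mock. The rise over mock was 7.69 (SE 0.32, limma adjusted p = 9.79e-06) or 207-fold in the combination and 2.17 (SE 0.32, adjusted p = 0.0287) or 4.49-fold with IKKβ(EE). With IRF5-4D the difference was 1.94 (SE 0.32), which did not pass in limma (adjusted p = 0.064). It passed without mock array 3 (2.41). The call with IKKβ(EE) was lost without either IKKβ(EE) array (1.85 and 2.48), either IRF5-4D array (2.17) or mock array 1 (1.70). Ordered from the highest difference in the combination against mock, the 2 probe sets stood at places 2 and 4 of 41091. In the combination they lay between percentiles 99.5 and 99.7 of their arrays.

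The third SRGN probe set, 1554676_at, answered much less. Each of the 3 probe sets is annotated to a different transcript record, and the cause of the weaker answer was not tested. It read 4.59 and 4.27 in the combination, 3.41 and 3.57 with IKKβ(EE), 3.46 and 3.55 with IRF5-4D, and 3.51 and 3.62 in mock. Only the combination arrays lay above the lower quartile of the arrays, and there it rose by 0.86 (SE 0.14, limma adjusted p = 0.0125) or 1.82-fold, a call lost without combination array 1 or mock array 1. Its differences with IKKβ(EE) and IRF5-4D were -0.07 and -0.06 (SE 0.14 each). With the 3 probe sets averaged, the SRGN difference was 5.18 in the combination, and 1.51 with IKKβ(EE) and 1.34 with IRF5-4D, where the adjusted p became 0.0543 and 0.136.

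Each addition of the second construct raised SRGN. Against IKKβ(EE) alone, the combination was higher by 4.54 (SE 0.30, limma adjusted p = 0.000161) or 23.3-fold on 201859_at, and by 5.53 (SE 0.32) or 46.0-fold on 201858_s_at. Against IRF5-4D alone, it was higher by 4.84 (SE 0.30, limma adjusted p = 0.000252) or 28.6-fold and by 5.75 (SE 0.32) or 53.9-fold. These 4 differences passed in every alternative run. Between IRF5-4D and IKKβ(EE), SRGN differed by -0.29 (95% interval -0.98 to 0.39) on 201859_at and by -0.23 (95% interval -0.95 to 0.49) on 201858_s_at, with no call. In all, 4 of 11 probe sets were higher and 0 lower in the combination than with IKKβ(EE), beside 1.38% of all probe sets called in either direction. Against IRF5-4D, 4 were higher and 1, that of GZMA, was lower, beside 1.03% of all.

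**Figure D2:**
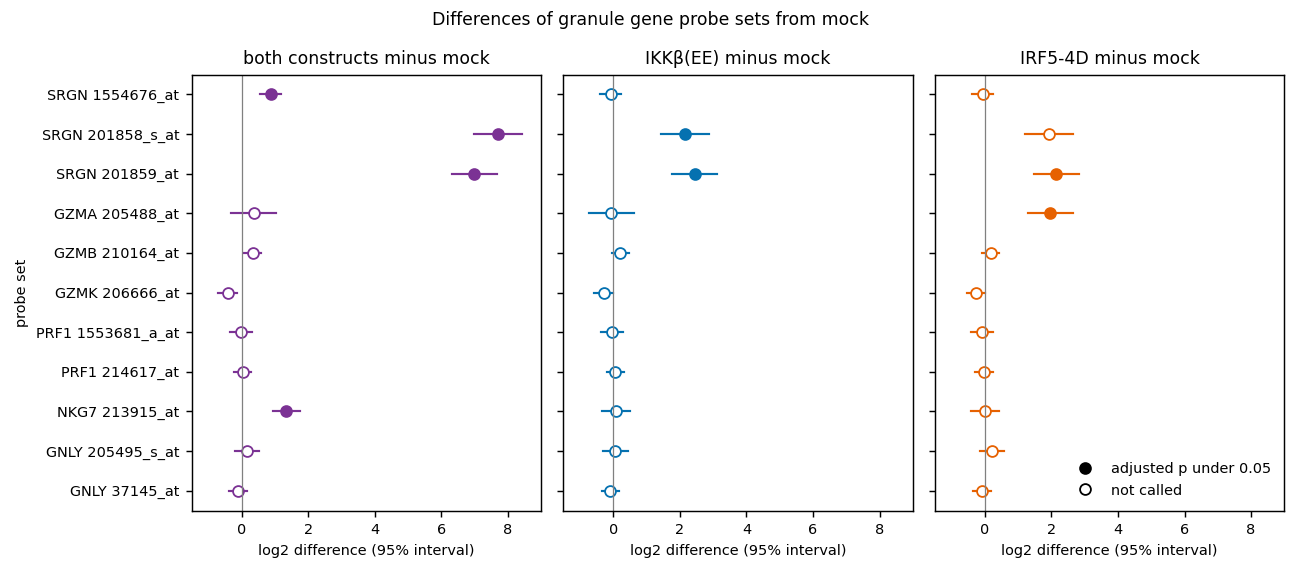
Log2 difference from mock (horizontal axis) of each probe set (vertical axis) with both constructs, with IKKβ(EE) and with IRF5-4D; bars are 95% intervals of the limma fit and filled points passed at an adjusted p under 0.05. SRGN reaches 7.69 with both constructs, against 2.17 to 2.44 with IKKβ(EE) and 1.94 to 2.15 with IRF5-4D on its 2 responding probe sets.

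The interaction asks whether the combination lay above or below the sum of the single differences on the log2 scale. For SRGN the single differences summed to 4.11 on 201858_s_at, and the combination difference was 7.69, so that the interaction was 3.58 (SE 0.45, limma adjusted p = 0.0323) or 12.0-fold. On 201859_at the sum was 4.59 against a difference of 6.98, an interaction of 2.39 (SE 0.43) that did not pass in limma (adjusted p = 0.137, unadjusted p = 0.000312). The test called 1 of 11 probe sets, and 0.0803% of all 41091. The call on 201858_s_at held in 2 of the 8 fits with 1 array left out, those without mock array 1 (4.05) and without combination array 3 (3.89). It was lost without combination array 1 (3.27), either array of IKKβ(EE) (3.90 and 3.27), either of IRF5-4D (3.66 and 3.51) or mock array 3 (3.12). On 201859_at it passed only without mock array 1, at 2.89. The interaction of 1554676_at was 1.001 (SE 0.20), that of NKG7 1.25 (SE 0.26) and that of GZMA -1.54 (SE 0.42), and none of these passed in limma (adjusted p of 0.192, 0.232 and 0.458). The other probe sets had interactions between -0.11 and 0.13.

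**Figure D3:**
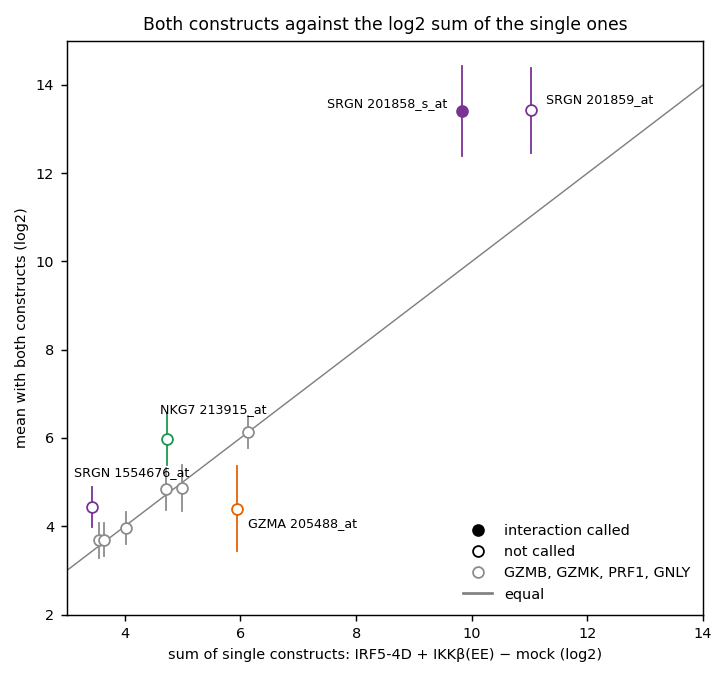
Mean log2 value with both constructs (vertical axis) against the log2 sum of the single constructs, IRF5-4D plus IKKβ(EE) minus mock (horizontal axis), for the 11 probe sets; the line marks equality, vertical bars are 95% intervals of the interaction, and filled points passed. SRGN and NKG7 lie above the line and GZMA below it, and 201858_s_at of SRGN is the 1 filled point.

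Of the granzymes, GZMA responded to IRF5-4D. GZMA encodes a trypsin-like serine protease of cytotoxic granules. Its probe set 205488_at read 4.61 and 4.19 in the combination, 3.71 and 4.22 with IKKβ(EE), 6.42 and 5.59 with IRF5-4D, and 4.32 and 3.74 in mock. Both IRF5-4D arrays lay above all 6 others, and those 6 overlapped. With IRF5-4D it averaged 6.01 ± 0.58 against 4.03 ± 0.41 in mock (SD, n = 2 each), a rise of 1.97 (SE 0.30, limma adjusted p = 0.0395) or 3.93-fold. With IKKβ(EE) the difference from mock was -0.07 (95% interval -0.74 to 0.61), and in the combination it was 0.37 (95% interval -0.31 to 1.04, limma adjusted p = 0.634). The combination fell by 1.61 on the log2 scale against IRF5-4D alone (SE 0.30, limma adjusted p = 0.0446), and IRF5-4D was above IKKβ(EE) by 2.04 (SE 0.30, limma adjusted p = 0.0192), the 1 of 11 probe sets called in that comparison (0.594% of all), a call lost without either IKKβ(EE) array or IRF5-4D array 1.

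These calls lie near the threshold. The rise with IRF5-4D passed in 2 of the 8 fits that left out an array, those without either combination array. It ranged from 1.56 without IRF5-4D array 1 (adjusted p = 0.332) to 2.38 without IRF5-4D array 3 (0.0547), and was lost without either IKKβ(EE) array (1.97), mock array 1 (2.26) or mock array 3 (1.68) as well. The difference between the combination and IRF5-4D passed only without a mock array, and it lay between -2.02 and -1.20 over the 8 fits. The direction held in every alternative run. The promoter of GZMA is shown because it is the granzyme gene that answered to a member of the IRF family, whose binding sites contain repeats of GAAA. The RefSeq promoter window (GRCh38.p14, chr5:55102396-55102695, plus strand, 250 bases before to 50 after the start) reads, 5′ to 3′, with capitals marking the letters GAAANNNGAAA:
GZMA: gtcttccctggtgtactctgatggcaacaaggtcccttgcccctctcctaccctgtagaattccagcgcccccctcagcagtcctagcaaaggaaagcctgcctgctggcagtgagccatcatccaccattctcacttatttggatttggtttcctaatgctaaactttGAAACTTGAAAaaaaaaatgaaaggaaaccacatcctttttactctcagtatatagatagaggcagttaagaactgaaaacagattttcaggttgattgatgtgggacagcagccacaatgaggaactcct
The match starts 81 bases before the annotated start, and this spacing was chosen after the sequence was read. Its letters on either strand occur in 2.86% of 35116 promoter windows of that length. The usual interferon-stimulated response element, GAAANNGAAA on either strand, occurs in 3.57% of all windows and the κB consensus in 11.3%, and neither is in this window.

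GZMB and GZMK, a granzyme that cleaves after aspartate and a trypsin-like granzyme, stayed near the lower quartile of the arrays. GZMB read 4.04 and 3.88 in the combination, 3.86 and 3.83 with IKKβ(EE), 3.80 and 3.83 with IRF5-4D, and 3.65 and 3.61 in mock. GZMK read 3.60 and 3.77 in the combination, 3.85 and 3.78 with IKKβ(EE), 3.86 and 3.81 with IRF5-4D, and 4.20 and 4.00 in mock. The combination arrays lay wholly above mock for GZMB and wholly below it for GZMK. The differences from mock were 0.33 (95% interval 0.07 to 0.59, limma adjusted p = 0.211) for GZMB and -0.42 (95% interval -0.70 to -0.14, limma adjusted p = 0.142) for GZMK in the combination. Over all probe sets the combination arrays lay above mock without overlap in 18.1% and below it without overlap in 25.6%. GZMK and GZMA lie on chromosome 5 with 0 protein-coding genes between them in RefSeq GRCh38.p14, and with IRF5-4D, where GZMA rose, GZMK read -0.26 (SE 0.13) from mock.

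PRF1 encodes perforin, which opens the target membrane to granzymes. Its probe set 214617_at read 6.16 and 6.11 in the combination, 6.10 and 6.22 with IKKβ(EE), 6.06 and 6.10 with IRF5-4D, and 6.14 and 6.06 in mock, and the groups lay close together. The differences from mock were 0.04 (95% interval -0.22 to 0.29), 0.06 and -0.02 in that order of groups. Probe set 1553681_a_at read between 4.62 and 5.01 on the 8 arrays and differed from mock by -0.01 (95% interval -0.34 to 0.32) in the combination, -0.05 with IKKβ(EE) and -0.09 with IRF5-4D. PRF1 and SRGN both lie on chromosome 10, with 19 protein-coding genes between them.

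NKG7 encodes a membrane protein of cytotoxic granules that takes part in their release. Probe set 213915_at read 5.77 and 6.19 in the combination, 4.65 and 4.80 with IKKβ(EE), 4.83 and 4.47 with IRF5-4D, and 4.49 and 4.79 in mock. Both combination arrays lay above the other 6, which overlapped and stayed below the array median. The combination averaged 5.98 ± 0.30 against 4.64 ± 0.22 in mock (SD, n = 2 each), a rise of 1.34 (SE 0.19, limma adjusted p = 0.00545) or 2.54-fold, which passed in every alternative run, with adjusted p of at most 0.0445. It was also higher than IKKβ(EE) by 1.26 (SE 0.19, limma adjusted p = 0.0125) and higher than IRF5-4D by 1.34 (SE 0.19, limma adjusted p = 0.0115). The call against IKKβ(EE) was lost without either IKKβ(EE) array (1.18 and 1.33) or combination array 3 (1.05), and that against IRF5-4D without either IRF5-4D array (1.52 and 1.16). The single constructs differed from mock by 0.09 with IKKβ(EE) (95% interval -0.33 to 0.51) and 0.01 with IRF5-4D (95% interval -0.41 to 0.43). Its promoter window, shown beside that of GZMA because NKG7 rose with both constructs and GZMA with IRF5-4D alone (GRCh38.p14, chr19:51372605-51372904, minus strand, RefSeq), holds none of the 3 motifs and reads:
NKG7: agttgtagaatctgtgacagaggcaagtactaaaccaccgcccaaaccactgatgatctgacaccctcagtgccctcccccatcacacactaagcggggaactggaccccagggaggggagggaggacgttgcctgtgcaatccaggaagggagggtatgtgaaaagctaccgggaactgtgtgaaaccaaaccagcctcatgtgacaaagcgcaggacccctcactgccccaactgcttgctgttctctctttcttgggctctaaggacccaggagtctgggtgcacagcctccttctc
Promoter windows were matched for 5 of the 7 genes, and those of GZMB, PRF1 and GNLY hold none of the 3 motifs either. Neither the interferon-stimulated response element nor the κB consensus is in any of the 5 windows, that of GZMA included. The spacing of GAAANNNGAAA was chosen on the GZMA sequence, so its absence elsewhere does not set GZMA apart. Whether any motif bears on these responses was not tested. SRGN and GZMK had no entry.

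GNLY encodes granulysin, a granule protein that damages microbial membranes. Probe set 205495_s_at read 4.86 and 4.89 in the combination, 4.85 and 4.69 with IKKβ(EE), 4.73 and 5.12 with IRF5-4D, and 4.87 and 4.55 in mock. The combination arrays lay just above those with IKKβ(EE), and the other pairs of groups overlapped. The differences from mock were 0.16 (95% interval -0.20 to 0.53), 0.06 and 0.21 in that order. The other probe set, 37145_at, lay between 3.61 and 3.84 on the 8 arrays, below their lower quartile, and differed from mock by -0.11 to -0.08.

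**Figure D4:**
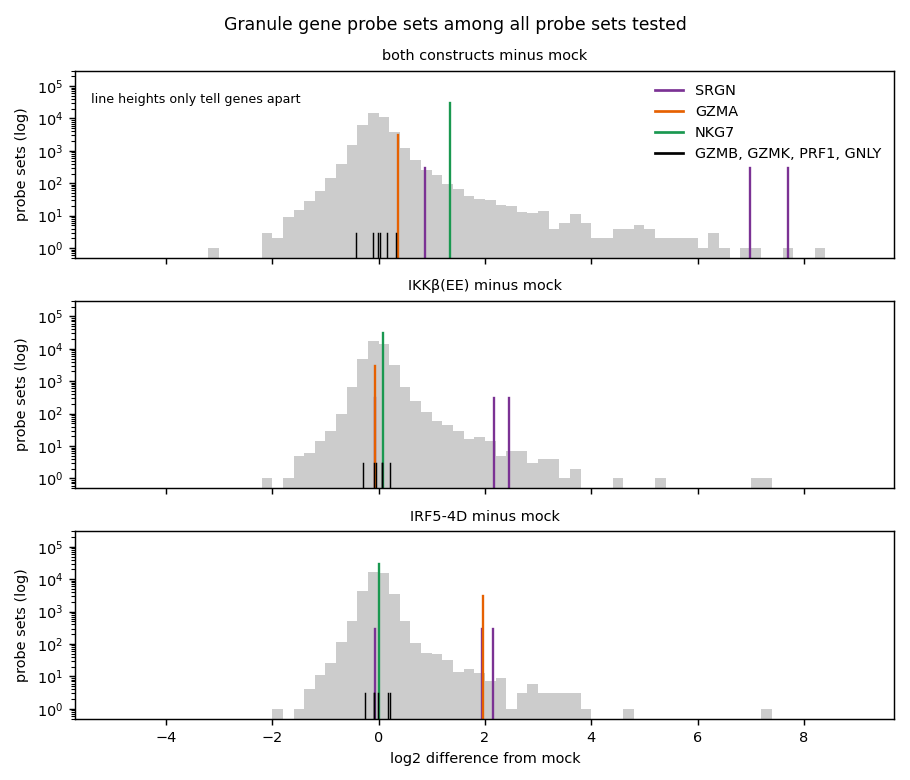
Distribution of the log2 difference from mock (horizontal axis) over 41091 probe sets (grey, number of probe sets on a log axis) with both constructs, IKKβ(EE) and IRF5-4D; vertical lines mark the probe sets of the granule genes, and line heights only tell genes apart. The 2 responding SRGN probe sets lie at 6.98 and 7.69 with both constructs, and GZMA lies at 1.97 with IRF5-4D and 0.37 with both.

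The gene groups around the granule genes were then described, each gene by its probe set with the highest mean, with the share of all 19775 genes called higher in the combination at 2.52%. An unadjusted limma p under 0.05 against mock was reached by 6213 of 41091 probe sets in the combination. With IKKβ(EE) 2786 reached it, and with IRF5-4D 2119. List counts at that level are to be read beside these. The enzymes that build and sulphate the chondroitin sulphate chains carried by serglycin had 4 of 23 measured genes higher in the combination and 0 lower, with a median of 0.09 beside -0.03 over all genes. CHST7, a chondroitin 6-O-sulphotransferase, averaged 8.64 ± 0.23 in the combination against 6.46 ± 0.10 in mock (SD, n = 2 each), a rise of 2.18 (SE 0.15, limma adjusted p = 8.76e-05) or 4.54-fold. UST, which sulphates uronic acid at the 2-O position, rose by 1.37 (SE 0.13) and XYLT2, which starts the chain, by 0.79 (SE 0.17). The fourth gene, CHST12, a 4-O-sulphotransferase named because it completes the count, rose by 0.56 (SE 0.11). The calls of CHST7 and UST held in each fit with an array left out. That of CHST12 was lost in all 8 and that of XYLT2 in 7, all but the fit without combination array 3, and the lowest XYLT2 difference over the alternatives was 0.12. With IRF5-4D 1 of 23 was higher (0.293% of all genes), CHST7 by 0.93 (SE 0.15, limma adjusted p = 0.049). Of the 8 fits with 1 array left out, those without a combination array kept this call and the others lost it, and it was kept in 7 of 21 alternatives in all. With IKKβ(EE) 0 of 23 passed in limma (4 at an unadjusted p under 0.05), and DSE, an epimerase of the chain, read 0.77 (SE 0.26).

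Of 21 genes of the granule exocytosis machinery, 2 were higher in the combination and 0 lower (median 0.16). LYST, whose loss gives giant lysosomes and granules in Chediak-Higashi syndrome, rose by 1.65 (SE 0.22, limma adjusted p = 0.004) or 3.14-fold, and passed in all alternatives with a lowest difference of 0.70. CD63, a tetraspanin of secretory lysosomes, rose by 0.88 (SE 0.16, limma adjusted p = 0.0199), which was lost without combination array 1 or mock array 1. The tether and fusion genes were not called, and RAB27A, the small GTPase of granule docking, read 0.55 (SE 0.16, limma adjusted p = 0.138). None of the 21 passed in limma with a single construct (0 with IKKβ(EE) and 2 with IRF5-4D at an unadjusted p under 0.05), where the largest differences were LYST at 0.47 with IKKβ(EE) and SYTL2 at -0.61 with IRF5-4D. Of 11 other granule proteases, their activators and inhibitors, 0 passed in limma in any comparison with mock (3 in the combination, 1 with IKKβ(EE) and 1 with IRF5-4D at an unadjusted p under 0.05), and SERPINB9, the inhibitor of granzyme B, read 0.82 (SE 0.19, limma adjusted p = 0.0625) in the combination. The cathepsin CTSH read -0.44 with IKKβ(EE) and -0.39 with IRF5-4D (SE 0.12 each).

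Other proteoglycan core proteins were set beside SRGN. None of 24 passed in limma in the combination (4 at an unadjusted p under 0.05), where SDC1 had the largest difference at 0.57 (SE 0.19), and none with IRF5-4D (2 at that level), where VCAN read -0.40 (SE 0.16). With IKKβ(EE) 1 of 24 was higher (0.47% of all genes), the syndecan SDC2, which averaged 7.64 ± 0.65 against 5.78 ± 0.27 in mock (SD, n = 2 each), a rise of 1.86 (SE 0.28, limma adjusted p = 0.0287). In the combination SDC2 read 6.001 ± 0.10. Its call was lost without IKKβ(EE) array 1, either IRF5-4D array or either mock array, and its lowest difference over the alternatives was 1.14. Of 8 measured proteins reported to be stored or secreted with serglycin in other cell types, 1 was higher in the combination. This was PLAT, tissue plasminogen activator, at 6.89 ± 0.82 in the combination against 2.81 ± 0.05 in mock (SD, n = 2 each), a rise of 4.09 (SE 0.31, limma adjusted p = 0.000163). The mock value lies below the lower quartile of the arrays, so the size of that rise is uncertain. None of the 8 passed with a single construct (1 with IKKβ(EE) and 3 with IRF5-4D at an unadjusted p under 0.05). PLAT read 1.24 (SE 0.31, limma adjusted p = 0.439) with IRF5-4D, and the largest difference in that list with IKKβ(EE) was ELANE at -0.41.

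Of 17 measured transcription regulators of cytotoxic genes in T and NK cells, 1 was higher in the combination and 0 lower. It was IRF4, a factor of activated B and T cells, with a rise of 2.81 (SE 0.33, limma adjusted p = 0.00206) or 7.03-fold, which passed in all alternatives with a lowest difference of 1.18. TBX21, the T-box factor of cytotoxic lymphocytes, read 3.89 in the combination and 4.19 in mock, and EOMES, its relative, 7.08 ± 0.68 and 7.04 ± 0.81 (SD, n = 2 each). With the single constructs 0 of 17 passed in limma (4 with IKKβ(EE) and 0 with IRF5-4D at an unadjusted p under 0.05), and the largest differences were ID2 at 0.87 with IKKβ(EE) and EOMES at -0.63 (SE 0.44) with IRF5-4D.

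**Figure D5:**
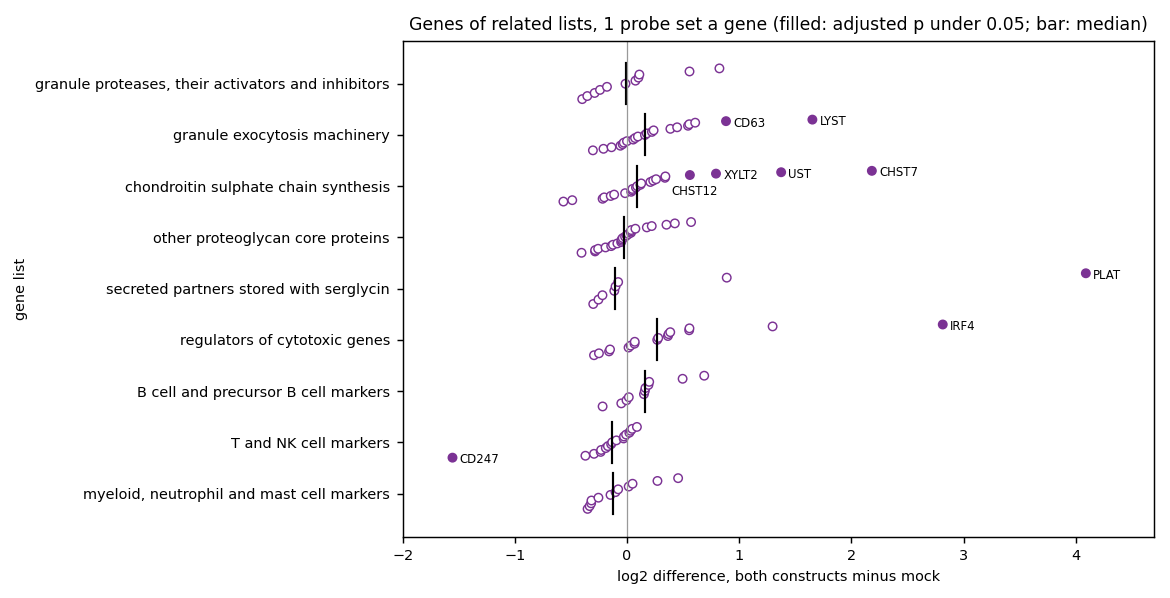
Log2 difference between both constructs and mock (horizontal axis) of the genes of 9 lists (vertical axis), 1 probe set a gene; filled points passed at an adjusted p under 0.05 and carry their symbol, and black bars are list medians. PLAT, IRF4, CHST7, LYST and UST have the largest rises, and CD247 is the 1 gene called lower.

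Markers of the cell types in which the granule genes are known were set beside these results. Of 17 measured T and NK cell markers, 4 or 5 lay above the median of an array, among them CD247 and EOMES. CD4 and CD5 had mean percentiles of 57.4 and 57.2 over the arrays. CD3E, CD8A, KLRD1, KLRF1 and NCR1 lay below the median of the arrays in every group. The summed log2 level of the 17 was 83.1 to 84.9 in the combination and 86.2 to 86.2 with IKKβ(EE). It was 85.0 to 85.3 with IRF5-4D and 86.3 to 88.3 in mock. Whether these levels bear on the rises of GZMA and NKG7 was not tested. In the combination 0 of 17 were higher and 1 was lower (0.399% of all genes were lower), CD247, a signalling chain of the T cell receptor complex, which fell by 1.56 on the log2 scale (SE 0.27, limma adjusted p = 0.0178), a call lost without combination array 1 or mock array 1. Of 12 measured myeloid, neutrophil and mast cell markers, 0 passed in limma in the combination and with IKKβ(EE) (2 each at an unadjusted p under 0.05), and their summed level was 57.2 to 57.4 in the combination, 56.6 to 56.8 with IKKβ(EE), 59.1 to 59.7 with IRF5-4D and 58.1 to 58.7 in mock. With IRF5-4D 1 of 12 was higher (0.293% of all genes), the stem cell factor receptor KIT, by 1.87 (SE 0.17, limma adjusted p = 0.00192), a call lost without IRF5-4D array 1. Of these 12, 3 to 5 lay above the median of an array. KIT had a mean percentile of 78.6 over the arrays, CTSG 56.4, CSF1R 54.2 and ITGAM 51.8. LYZ, PRTN3, CPA3 and AZU1 lay below the lower quartile of the arrays in all groups. None of the 11 B cell and precursor markers passed in limma in any comparison with mock (2 in the combination and 0 with a single construct at an unadjusted p under 0.05).

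The genes whose levels followed each responding granule gene most closely over the 8 arrays were found among 400 or 401 other genes that differed by more than 1 between the combination and mock. For SRGN (201858_s_at) they were DAPP1, an adaptor of B cell receptor signalling (Pearson r = 0.995), NAMPT (0.989), MYEOV (0.986), UST (0.986) and CCDC126 (0.984). For NKG7 they were BHLHE41 (0.987), IRF9 (0.957), PCP4 (0.954), the chemokine CXCL9 (0.945) and HSFX3 (0.940). For GZMA they were the chemokine CCL8 (0.887), the heat shock gene HSPA6 (0.877), CREB5 (0.842), CUX2 (0.788) and AMIGO2 (0.763). CCL8 read 5.10 in the combination, 3.85 with IKKβ(EE), 7.25 with IRF5-4D and 3.88 in mock, the same order at the top as GZMA. GZMA itself differed by 0.37 between the combination and mock, so genes with as small a difference there were not among the candidates, and the sizes of r are not compared between the 3 genes. These correlations describe 8 arrays that fall into 4 groups of 2 and share their normalization. SRGN and NKG7 also differed by more than 1 between the combination and mock. A high r with candidates chosen on that difference was therefore largely set by the choice. Spearman's rho was lower for each gene named, at 0.905 to 0.976 beside SRGN, 0.476 to 0.905 beside NKG7 and 0.548 to 0.786 beside GZMA.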

How the data were processed

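The deposited table holds a log2 value for each probe set on each array, made by the authors with RMA per the submitters' processing notes. RMA corrects background, quantile-normalizes and summarises probes; its version is not given in the sources. Groups came from the sample titles, which read only IRF or IKK for the single constructs. These were taken as IRF5-4D and IKKβ(EE) from the series design. The 62 control probe sets and 13522 others without exactly 1 symbol in the platform annotation were left out. Of 41091 probe sets kept, 41037 were found in RefSeq by Entrez identifier, and 0 symbols changed. For all these probe sets, 4 group means were estimated from the 8 arrays in limma 3.58.1 under R 4.3.3 (lmFit, eBayes; 4 residual and 5.24 prior degrees of freedom), without a filter on level, and adjusted by Benjamini-Hochberg at 0.05. Differences are log2 with the moderated standard error (SE). Probe sets rather than genes were fitted because the genes were defined by all their probe sets. The number of arrays limits the precision. P-values measure only the spread between arrays of a group. The procedure was run on simulated independent normal values, where only the combination against mock was read. The interaction and the single constructs were not covered there. The member genes, the 9 lists and the naming rule were chosen with earlier results of these data known; 8 list genes had no single-symbol probe set and are not analysed here. The rule named all member probe sets, up to 3 called genes (or the 1 with the largest difference) of each list and comparison, and the 5 genes most like each responding gene. Alternatives covered probe set summary, filter, normalization, limma options, a replicate block, the groups fitted, thresholds and leaving out each array.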

Additional observations from a re-analysis of the deposited data

Results flagged for a closer look

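The effect of IKKβ(EE) on SRGN differed with and without IRF5-4D on probe set 201858_s_at by the test of the interaction, at 3.58 (SE 0.45, limma adjusted p = 0.0323) on the log2 scale. SRGN was higher by 5.75 in the combination than with IRF5-4D, and by 2.17 with IKKβ(EE) than in mock. Probe set 201859_at read 2.39 in the same test and did not pass.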

How the results depend on the processing

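Of the differences described above, none that passed changed direction under the 21 alternatives. The numbers of granule probe sets called moved as follows. With 1 probe set per gene they became 2 in the combination against mock, 1 with IKKβ(EE) against mock, 2 in the combination against IKKβ(EE), 3 against IRF5-4D and 0 in the interaction. With the mean of a gene's probe sets they were 2, 0, 2, 2 and 0 in that order, and 0 with IRF5-4D against mock. Both fits test 7 genes in place of 11 probe sets. With only probe sets above the median level they were 2 in each comparison of the combination, 1 with IRF5-4D against mock and 0 between IRF5-4D and IKKβ(EE), since GZMA, NKG7 and 1554676_at of SRGN were not tested there. In the interaction 0 were called, although 201858_s_at was tested (3.58, limma adjusted p = 0.0845), and over all probe sets 0 were called in place of 33; the cause was not tested. With the 2 groups compared fitted alone they were 0 for each single construct against mock and 3 for the combination against IRF5-4D. The interaction needs all 4 groups, so it could not be run with 2. With robust variance they were 1 with IRF5-4D and 0 in the interaction, and with array weights 1 with IRF5-4D; the cause was not tested. With 1 array left out the counts ranged from 0 to 2 for IRF5-4D and for IKKβ(EE) against mock, 3 to 4 for the combination against mock, 2 to 5 against IRF5-4D, 2 to 4 against IKKβ(EE), 0 to 2 for the interaction and 0 to 1 between IRF5-4D and IKKβ(EE). The calls over all probe sets moved as well in these fits, between 27 and 124 for IRF5-4D against mock, 31 and 158 for IKKβ(EE) against mock, 558 and 889 for the combination against mock, 60 and 443 against IRF5-4D, 191 and 585 against IKKβ(EE), 6 and 123 for the interaction and 52 and 280 between IRF5-4D and IKKβ(EE).

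The arrays share only the numbers 1 and 3, and deviations of arrays with the same number correlated between -0.06 and 0.33 across the 6 pairs of groups. With a replicate block, 201858_s_at of SRGN also passed with IRF5-4D against mock (1.94, limma adjusted p = 0.0438), the count of granule probe sets there was 3, and over all probe sets 1639 were called in the combination in place of 1049, 293 in place of 152 with IKKβ(EE), 157 in place of 100 with IRF5-4D and 99 in place of 33 in the interaction. Differences starting near the lower quartile of an array are uncertain in size.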
